A study of Caenorhabditis elegans with 12 samples.

Results

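The 37 genes described here are nuclear genes for subunits of the mitochondrial respiratory chain of Caenorhabditis elegans. They were taken by name from a list that includes nuo, nduf, lpd, mev, sdh, isp, cyc, ucr, cox, atp, asb and asg genes, with 2 further complex V subunit genes that carry only sequence names, out of 46929 genes in the deposited count table. The list holds 12 genes of complex I, 4 of complex II, 6 of complex III, 1 for cytochrome c, 5 of complex IV and 9 of complex V. The rule uses names and no measured value, but the list was drawn up with earlier results of these data known.

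Whole worms were raised on NGM buffer with live bacteria, named OPS0 in the labels, until the L4 larval stage. From day 1 of adulthood, which was day 4 of life, the 4 groups received the control diet, desiccated thymus, a cytoplasmic thymus gland extract or a nuclear thymus gland extract. The thymus was bovine per the series title, and each group had 3 libraries. The labels used here give no strain, age at collection or number of worms in a library, and do not tie their product names (ThymusFD, Thymex and ThymusPMG) to the groups.

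The respiratory chain passes electrons from NADH (through complex I) and from succinate (through complex II) to ubiquinone, then through complex III and cytochrome c to oxygen at complex IV. Proton pumping by complexes I, III and IV drives ATP synthesis by complex V. Most subunits come from nuclear genes and are imported into mitochondria, while the core membrane subunits come from the mitochondrial genome. In C. elegans, lowered function of subunits such as ISP-1, NUO-6 and MEV-1 is known to change lifespan and stress resistance.

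Libraries held 23105256 to 33447280 counts. The 37 genes together took 0.674% to 0.849% of the counts of a library. Ribosomal RNA genes took 0.377% of counts at the lowest and 14% at the highest, in desiccated thymus replicate 3, and without them the share of the 37 genes was 0.757% to 0.852%. Levels are CPM, counts scaled to a common library total, with totals adjusted by edgeR's TMM factors. Within that scale, the summed level of the 37 genes was 8102 ± 109 CPM in the control, 7650 ± 258 in desiccated thymus, 7882 ± 192 in cytoplasmic extract and 8150 ± 204 in nuclear extract (SD, n = 3 each). The lowest library was desiccated thymus replicate 1 with 7365 CPM and the highest was nuclear extract replicate 1 with 8301 CPM.

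Markers of the tissues of an adult worm were present in all libraries. None of 11 body wall muscle, 13 germline, 10 intestine, 9 hypodermis and 9 neuron markers was at 0 in any library. Some hypodermis markers were near 0, however, with rol-6 at 0.040 CPM in control replicate 1. Sperm markers were near 0, with a summed level of 1.31 to 29.4 CPM over 12 genes, 10 of them at 0 in at least 1 library.

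Of the 37 genes, 36 had enough counts to be tested. The exception was nuo-3, which encodes an accessory subunit of complex I. Listed as CELE_Y57G11C.12, it had 5 counts over all 12 libraries, 0 to 2 in each and 0 in 8 of them, against 8665 to 470169 counts over all libraries for the other 36. Its exons lie on chromosome IV between 14796421 and 14797544 (WBcel235), and 93.3% of their bases are shared, on the same strand, with exons of Y57G11C.1147, a protein-coding gene between 14796442 and 14797514. Y57G11C.1147 itself had 98 counts in all, 3 to 11 in each library. The part of the overlap in the low count of nuo-3 was not tested, so its level is not known from these counts. For the other 36 genes, at most 3.48% of exon bases overlapped another gene.

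**Figure D1:**
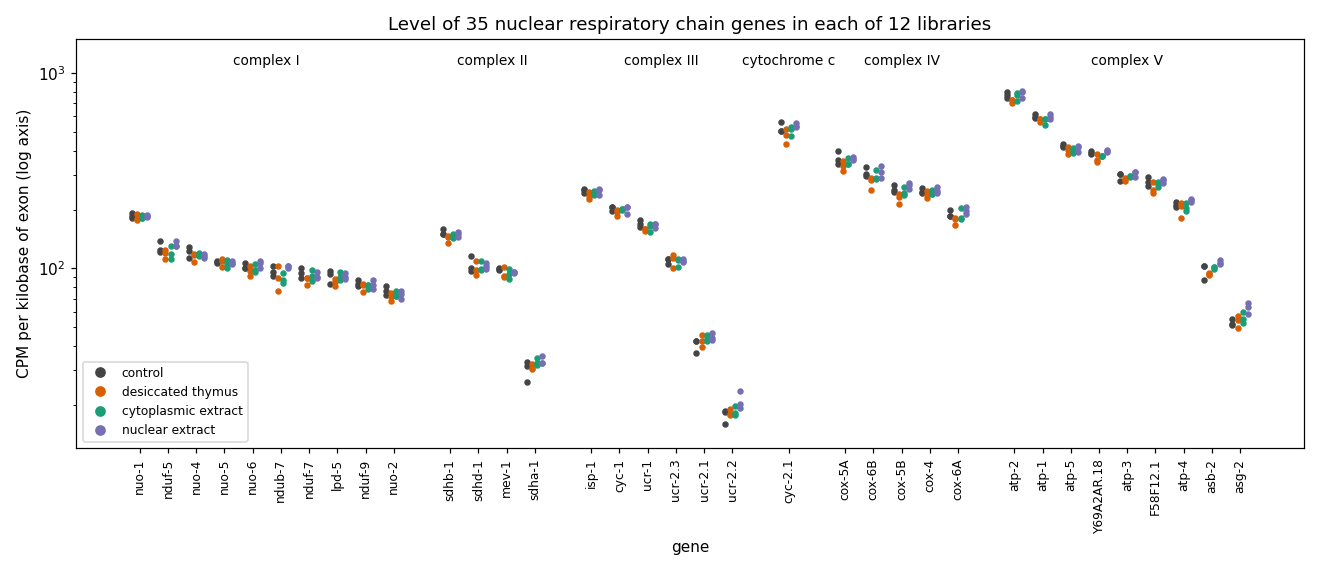
Level of 35 of the tested genes, as CPM per kilobase of exon on a log axis, with 1 point for each of the 12 libraries coloured by diet; genes are grouped by complex and ordered by their control level. The genes span a wide range, from ucr-2.2 near 17.7 to atp-2 near 774, while the points of 1 gene sit close together in all 4 diets.

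Levels can be compared between genes only per length, and they are given here as CPM per kilobase of exon (RPKM). In the control, the median level was 96.5 for complex I, 102 for complex II, 139 for complex III, 255 for complex IV and 297 for complex V. The highest gene was atp-2, for the catalytic beta subunit of ATP synthase, at 774 ± 31.1 (SD, n = 3), and the lowest was ucr-2.2, for a core protein of complex III, at 17.7 ± 1.47, so that levels spanned 43.9-fold. Control libraries of atp-2 read 742, 804 and 776, and those of ucr-2.2 read 16, 18.3 and 18.7.

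The alpha subunit gene atp-1 was second at 602 and cyc-2.1, for cytochrome c, came next at 523. Ordered by control level, 20 of 35 neighbouring pairs had overlapping control libraries and 15 did not. The top 4 genes (atp-2, atp-1, cyc-2.1 and atp-5) were each separated from the next, while the 11 genes from ucr-2.3 down to nuo-2 formed a run in which each overlapped the next.

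Spread within a complex differed. In complex I the level was highest, at 187, for nuo-1, for the NADH-binding flavoprotein. Complex II ran from 30.3 for sdha-1, for the flavoprotein, to 153 for sdhb-1, for the iron-sulfur subunit, and complex III from ucr-2.2 at 17.7 to isp-1, for the Rieske iron-sulfur protein, at 251. The 5 complex IV genes lay within 1.93-fold, from cox-6A at 190 to cox-5A at 366. In complex V, asg-2, for subunit g, was lowest at 52.7 ± 1.99.

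Low levels within the complexes were found among X-linked genes. The X chromosome carries 6 of the 37 genes, among them sdha-1, ucr-2.1, ucr-2.2, asb-2 and asg-2, and the lowest tested gene of complexes II, III and V was X-linked, while complex IV has no X-linked gene here. Each of those named has a related autosomal gene for the same subunit, measured in the same libraries. Of the summed level per length of a pair in the control, sdha-1 made up 23.8% ± 1.29 beside sdha-2, asb-2 30.1% ± 2.17 beside asb-1 (known as the germline form of subunit b), and asg-2 18.9% ± 1.80 beside asg-1 (SD, n = 3). Set against ucr-2.3, ucr-2.1 made up 27% ± 0.991 and ucr-2.2 13.9% ± 0.623. For cytochrome c, cyc-2.1 made up 99.9% of the sum with cyc-2.2. No source used here says how reads that match both genes of a pair were counted, so these shares are uncertain to that extent.

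Replicates agreed closely for these genes. The biological coefficient of variation, edgeR's measure of spread between replicates beyond counting error, had a median of 4.92% over the 36 genes, from 3.87% to 8.30%. The 5574 tested genes within the same range of levels had a median of 5.0%, which is close to that of the respiratory chain genes. Over all 12 libraries, the highest library of a gene was 1.09-fold (nuo-1) to 1.46-fold (ucr-2.2) above its lowest.

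The desiccated thymus diet was compared with the control to ask whether dried whole thymus changed these genes. None of the 36 passed an adjusted p of 0.05 with edgeR's quasi-likelihood test, adjusted over all 14610 tested genes, where 3.94% of all tested genes passed. DESeq2 also called 0, beside 6.61% of the genes to which it gave an adjusted p. At an unadjusted p under 0.05 there were 10 of 36, all with lower values on desiccated thymus, where 6.43% of all tested genes were lower at that threshold. These 10 were sdhb-1 of complex II, isp-1 and ucr-1 of complex III, cyc-2.1 for cytochrome c, cox-5A, cox-5B and cox-6B of complex IV, and atp-2, Y69A2AR.18 and F58F12.1 of complex V. Log2 fold changes of the 36 genes had a median of -0.078, with 31 below 0, beside a median of -0.0014 and 50.3% below 0 over all tested genes. A median below 0 was not particular to these genes. It was -0.091 for glycolysis, -0.080 for body wall muscle markers, -0.074 for the mitochondrial ribosome and -0.054 for the TCA cycle list. Other lists lay above 0, with 0.085 for neuron markers, 0.11 for the mitochondrial genome and 0.20 for intestine markers.

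The smallest adjusted p belonged to cox-5B (CELE_F26E4.9, chromosome I, 9789009 to 9789851 in WBcel235), for a nuclear subunit of cytochrome c oxidase. Its control libraries read 130, 120 and 123 CPM and its desiccated thymus libraries 104, 113 and 117 CPM. All 3 desiccated thymus libraries lay below all 3 control libraries, with a log2 fold change of -0.16 (95% interval -0.27 to -0.046, adjusted p = 0.121). The lowest log2 fold change was that of cox-6B (CELE_Y71H2AM.5, chromosome III, 2786202 to 2786754), another oxidase subunit gene, at -0.18 (-0.31 to -0.039, adjusted p = 0.169). Its control libraries read 146, 135 and 132 CPM and its desiccated thymus libraries 112, 125 and 129 CPM, and these groups did not overlap either.

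In 7 of 36 genes the 3 desiccated thymus libraries lay below all control libraries (cox-5B, cox-6B, cox-6A, sdhb-1, ucr-1, atp-1 and atp-2) and in 0 above, beside 7.97% below, and 20.2% in either direction, among all tested genes. Complex IV genes had a median log2 fold change of -0.13 with 5 of 5 below 0, and complex I genes -0.089 with 11 of 11 below 0. Complex V had -0.073 with 8 of 9 below 0, complex II -0.069 with 3 of 4, and complex III -0.035 with 3 of 6. Across the 36 genes, 95% intervals for 1 gene at a time reached from 0.806-fold to 1.17-fold of the control.

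Desiccated thymus replicate 1 was the lowest of all 12 libraries for 23 of the 36 genes. Without it, 2 genes lay below the control at an unadjusted p under 0.05 and the median log2 fold change was -0.049. Scaled by library totals only, without TMM factors, the median was -0.12, beside -0.042 over all tested genes. The unadjusted count was 5 with only the 2 groups compared, 6 when control replicate 1 or control replicate 2 was left out and 16 when desiccated thymus replicate 2 was left out. In that last fit Y69A2AR.18, for the gamma subunit of ATP synthase, had an adjusted p of 0.0465 with edgeR's test and a log2 fold change of -0.14. Over all tested genes, 575 passed an adjusted p of 0.05 in the main fit and 341 without desiccated thymus replicate 1. The number was 321 with only the 2 groups, 500 without control replicate 1, 397 without control replicate 2 and 309 without desiccated thymus replicate 2. The share of all tested genes at the unadjusted threshold was not recorded for these fits.

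**Figure D2:**
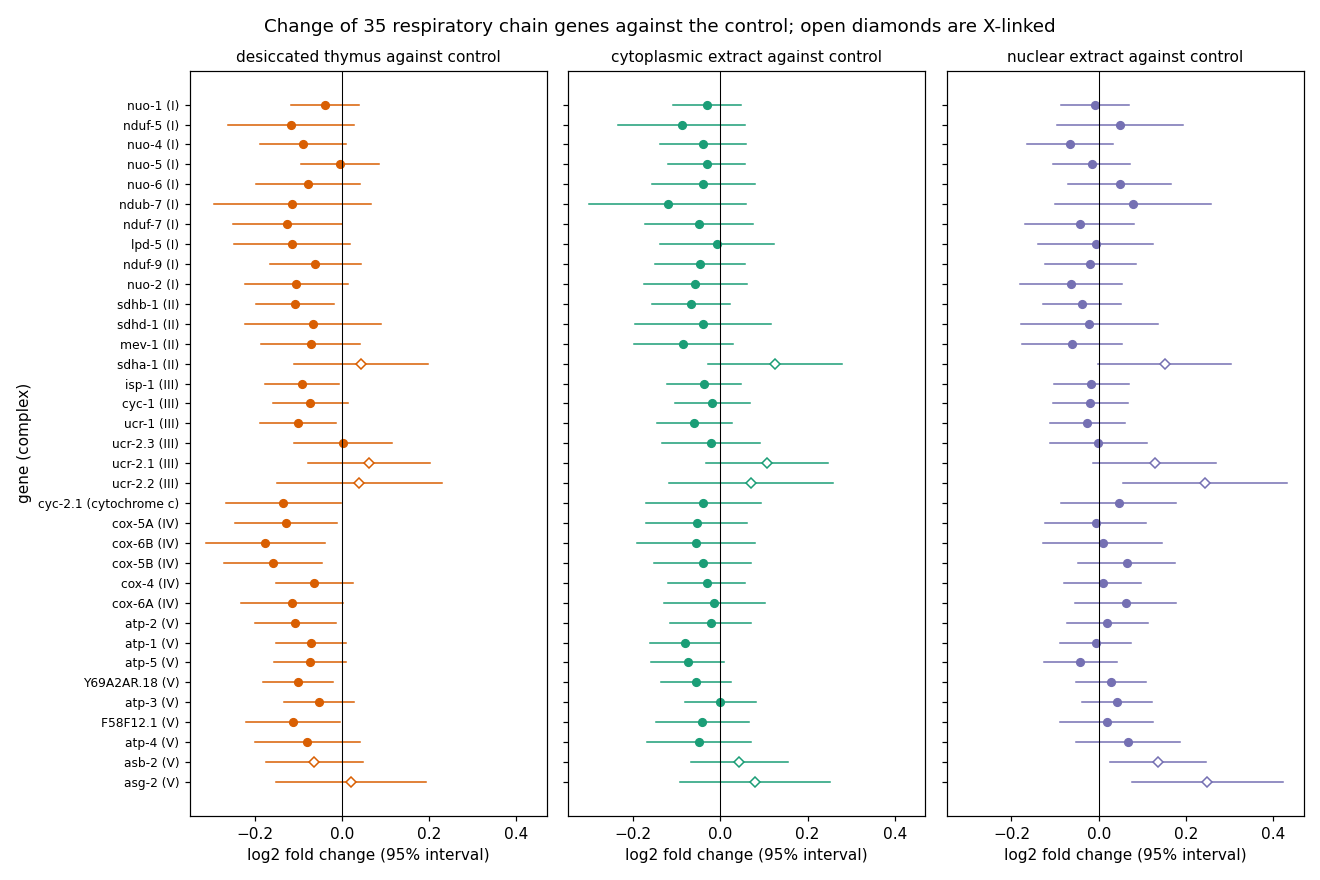
Log2 fold change against the control (points) with 95% interval (lines) for the same 35 genes in each thymus diet; filled circles are autosomal and open diamonds X-linked genes, ordered as in the plot of levels. No gene passed an adjusted p of 0.05; on desiccated thymus 30 of 35 points lie left of 0, and with nuclear extract the X-linked asg-2 and ucr-2.2 lie farthest right.

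The cytoplasmic extract was compared with the same control libraries. None of the 36 genes passed edgeR's test, beside 0.65% of all tested genes, and DESeq2 called 0, beside 2.55%. At an unadjusted p under 0.05 there was 1, atp-1 (CELE_H28O16.1), for the alpha subunit of ATP synthase, beside 12.6% of all tested genes. Control libraries of atp-1 read 1200, 1257 and 1211 CPM and cytoplasmic extract libraries 1105, 1184 and 1179 CPM. The 3 extract libraries lay just below the control libraries, with a log2 fold change of -0.081 (95% interval -0.16 to -0.00064, adjusted p = 0.391). The median log2 fold change of the 36 genes was -0.039 with 30 below 0, beside 49.6% of all tested genes, from -0.12 for ndub-7 of complex I to 0.13 for sdha-1. With totals only the median was -0.0092 with 24 below 0, beside a median of 0.032 over all tested genes. It was -0.026 with 25 below 0 without control replicate 1 and -0.022 with 24 below 0 without cytoplasmic extract replicate 1. In 4 genes (atp-1, atp-5, sdhb-1 and Y69A2AR.18) the extract libraries lay below all control libraries, beside 7.78% of all tested genes. Intervals for single genes reached from 0.812-fold to 1.21-fold of the control.

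The nuclear extract was the diet with the most called genes, and the respiratory chain genes were again without a call. None of the 36 passed edgeR's test, beside 13.3% of all tested genes, while DESeq2 called 1, asg-2, with an adjusted p of 0.0484, beside 20.5% of the genes it tested. At an unadjusted p under 0.05 there were 3, asg-2, ucr-2.2 and asb-2, all higher and all X-linked, beside 30% of all tested genes. The median log2 fold change was 0.0039, with 18 genes below and 18 above 0, and it was -0.011 with size factors in place of TMM and 0.046 with totals only, so it has no fixed sign. The median over all tested genes was 0.016. Intervals for single genes reached from 0.882-fold to 1.35-fold of the control.

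For asg-2 (CELE_C53B7.4, X chromosome, 6841258 to 6842121) the control libraries read 25.4, 27.3 and 25.9 CPM and the nuclear extract libraries 31.3, 32.9 and 29.1 CPM. The groups did not overlap, with a log2 fold change of 0.25 (95% interval 0.077 to 0.42, adjusted p = 0.0533 with edgeR). With the replicate number as a block, which the pairing check allows for this comparison, asg-2 passed edgeR's test with a log2 fold change of 0.25 and an adjusted p of 0.0475, beside 14.2% of all tested genes.

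For ucr-2.2 (CELE_T10B10.2, X chromosome, 15173904 to 15178145) the control libraries read 23, 26.4 and 26.8 CPM and the nuclear extract libraries 28.9, 33.6 and 27.7 CPM. The groups did not overlap, and nuclear extract replicate 2 stood highest of all 12 libraries, with a log2 fold change of 0.24 (0.056 to 0.43, adjusted p = 0.0787). Libraries of asb-2 (CELE_F02E8.1, X chromosome, 4469766 to 4471476), for subunit b of ATP synthase, read 103, 121 and 121 CPM in the control and 124, 130 and 125 CPM with nuclear extract. They did not overlap, with a log2 fold change of 0.14 (0.025 to 0.25, adjusted p = 0.0951).

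In ucr-2.1 the nuclear extract libraries also lay above all control libraries, and in mev-1, for a membrane subunit of complex II, they lay below. That made 4 of 36 genes higher and 1 lower without overlap, beside 17.8% higher and 15.4% lower among all tested genes. Leaving out control replicate 3 gave 1 call, sdha-1, with a log2 fold change of 0.22 and an adjusted p of 0.0478 with edgeR's test. In that fit 2137 of all tested genes were called, beside 1948 in the main fit. Without control replicate 1, 1 gene was higher and 1 lower at an unadjusted p under 0.05, and the smallest adjusted p was 0.123, while 1124 of all tested genes were called.

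Comparisons between the thymus diets compare no control library, but control libraries enter the same fit, its scaling and its estimate of spread. Each of these comparisons also shares its libraries with others among them. Nuclear extract against desiccated thymus gave 0 of 36 calls with edgeR, beside 0.144% of all tested genes, and 2 with DESeq2, cox-5B (adjusted p = 0.027) and asb-2 (adjusted p = 0.0445), beside 2.1%. At an unadjusted p under 0.05 there were 16 of 36, all higher with nuclear extract, beside 7.04% of all tested genes. In 17 of 36 the 3 nuclear extract libraries lay above all desiccated thymus libraries and in 0 below, beside 11.5% and 9.56% of all tested genes. The median log2 fold change was 0.088 with 34 of 36 above 0, beside 0.014 and 53.3% above 0 over all tested genes. With totals only it was 0.17, beside 0.097 over all tested genes. In that fit 24 genes reached an unadjusted p under 0.05, and 113 of all tested genes passed an adjusted p of 0.05. By complex, the median was 0.18 in complex IV, 0.13 in complex V, 0.070 in complex III, 0.056 in complex II and 0.042 in complex I.

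For cox-5B, nuclear extract libraries read 134, 131 and 124 CPM against 104, 113 and 117 on desiccated thymus, a log2 fold change of 0.22 (95% interval 0.11 to 0.33, adjusted p = 0.105 with edgeR). These diets did not overlap, while the control libraries, at 120 to 130 CPM, overlapped those of the nuclear extract. The unadjusted count fell from 16 to 5 without desiccated thymus replicate 1, to 8 without nuclear extract replicate 1, to 9 without nuclear extract replicate 2 and to 10 without desiccated thymus replicate 3, and it was 18 without desiccated thymus replicate 2. In the first of these fits 31 genes stayed above 0, with a median of 0.075. Over all tested genes, 21 passed an adjusted p of 0.05 in the main fit, and 6, 14, 5, 10 and 11 in these fits in the same order. The share of all tested genes at the unadjusted threshold was not recorded for them.

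Nuclear against cytoplasmic extract gave 0 calls with edgeR and 0 with DESeq2, beside 1.57% and 3.68% of the genes tested. The median log2 fold change was 0.036 with 32 of 36 above 0, beside 0.0061 and 51.5% above 0 over all tested genes. With 1 library left out, 4 to 11 genes lay below 0. There were 2 genes at an unadjusted p under 0.05, both higher with nuclear extract, beside 14.2% of all tested genes. They were ndub-7, for an accessory subunit of complex I (log2 fold change 0.20, 95% interval 0.020 to 0.38, adjusted p = 0.292), and Y69A2AR.18 (0.084, 0.0045 to 0.16, adjusted p = 0.320).

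Desiccated thymus against cytoplasmic extract likewise gave 0 calls with both tools, beside 1.05% of the genes tested with edgeR and 2.63% with DESeq2. Only cox-5B reached an unadjusted p under 0.05 there, with a log2 fold change of -0.12 (-0.23 to -0.0058, adjusted p = 0.493), beside 9.38% of all tested genes. The median of the 36 genes was -0.046 with 30 below 0, beside -0.0033 and 51.2% below 0 over all tested genes. Without desiccated thymus replicate 1 it was -0.012 with 20 below 0. The test for any difference among the 4 diets called 0 of 36 with edgeR, beside 7.48% of all tested genes, and 2 with DESeq2, cox-5B (adjusted p = 0.0226) and Y69A2AR.18 (adjusted p = 0.0425), beside 16.9%. At an unadjusted p under 0.05, 6 genes reached it, beside 23.3% of all tested genes.

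**Figure D3:**
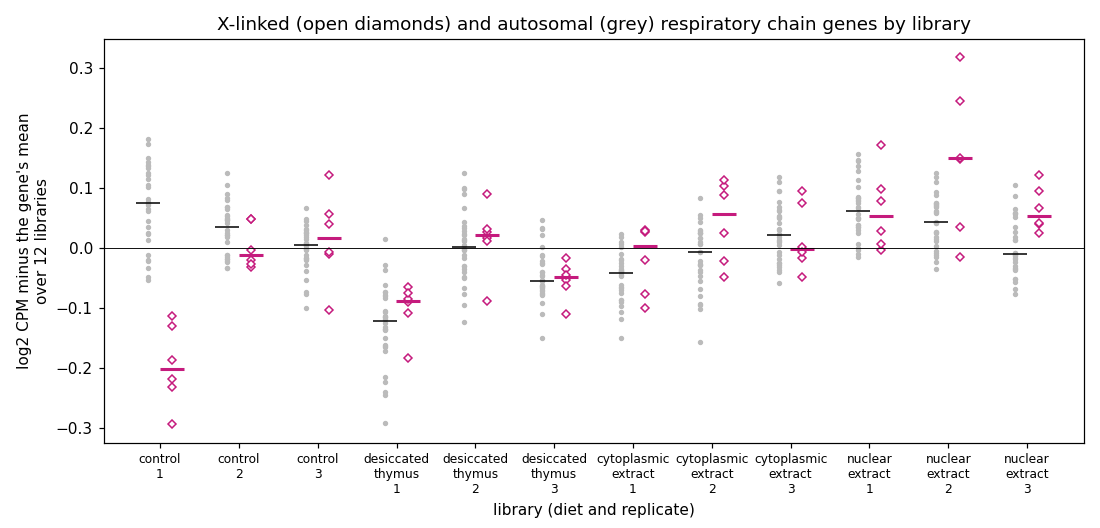
Deviation of each gene's log2 CPM from its mean over the 12 libraries, for the 6 X-linked genes (open diamonds) and the 30 autosomal genes (grey points); bars mark the median of each set. X-linked genes lie lowest in control replicate 1 (median -0.20), where autosomal genes lie highest (median 0.075), and highest in nuclear extract replicate 2 (median 0.15).

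X-linked and autosomal genes of the chain took different courses across libraries. This grouping was made after the values were seen and is given without a test. With nuclear extract, the 6 X-linked genes had a median log2 fold change of 0.14 against the control, with 5 of 6 above 0, and the 30 autosomal genes had -0.0071, which was 0.035 when scaled by totals only. All 2092 tested X-linked genes had a median of 0.21, with 16.2% called higher, and all 12502 autosomal genes had -0.0089, with 7.35% called higher, so the difference was not particular to the respiratory chain. Against the same control, the 6 genes had medians of 0.031 on desiccated thymus and 0.075 with cytoplasmic extract, and the autosomal genes had -0.096 and -0.041. With 1 library left out, the X-linked medians ranged from -0.039 (without control replicate 1) to 0.060 (without control replicate 2) on desiccated thymus and from 0.016 (without control replicate 1) to 0.11 (without cytoplasmic extract replicate 1) with cytoplasmic extract. The autosomal medians ranged from -0.13 to -0.064 and from -0.068 to -0.028. With totals only, the X-linked median on desiccated thymus was -0.010 and the autosomal median with cytoplasmic extract was -0.011.

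Control replicate 1 was the lowest library for 5 of the 6 X-linked genes, with a median deviation of -0.20, beside -0.19 over all tested X-linked genes. Without it, the median with nuclear extract was 0.062 for the X-linked and 0.016 for the autosomal genes. X-linked genes are largely silent in the germ line of C. elegans, and in bulk RNA fewer cells of a tissue and less RNA per cell cannot be told apart. Control replicate 1 also had the highest summed germline marker level, 10721 CPM, and the lowest body wall muscle level, 1382 CPM. The summed germline level was 10286 to 10721 CPM in the control, 9988 to 10354 on desiccated thymus, 9814 to 10284 with cytoplasmic extract and 9721 to 10094 with nuclear extract. With nuclear extract 1 of 13 germline markers rose (glh-1) and 2 fell (oma-1 and oma-2), beside 8.62% of all tested genes that rose and 4.72% that fell.

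The summed muscle level was 1382 to 1998 CPM in the control, 1542 to 1757 on desiccated thymus, 1586 to 1834 with cytoplasmic extract and 1782 to 2206 with nuclear extract, where nuclear extract replicate 2 was highest. None of the 11 muscle markers passed the test in any comparison, with the control or between thymus diets. With nuclear extract all 11 were higher than on desiccated thymus, with log2 fold changes of 0.10 to 0.40 and a median of 0.28. Against cytoplasmic extract all 11 were higher too, from 0.099 to 0.38 with a median of 0.21. Medians of the 36 respiratory chain genes in these comparisons were 0.088 and 0.036. Of 10 intestine markers, 3 rose on desiccated thymus (elt-2, pho-1 and pept-1), beside 3% of all tested genes, and 0 with cytoplasmic extract, beside 0.459%. With nuclear extract 5 rose, those 3 among them, beside the same 8.62%. Their summed level was 17794 to 22522 CPM in the control and 18736 to 20192 CPM with nuclear extract, which overlap, but vit-2, for a yolk protein, made up 89.9% to 92.6% of the sum. Without vit-2 the other 9 summed to 1568 to 1673 CPM in the control, 1861 to 2058 on desiccated thymus, 1652 to 1803 with cytoplasmic extract and 1800 to 1969 with nuclear extract. Desiccated thymus and nuclear extract libraries then lay above all control libraries. Most of that sum came from asp-1, at 842 to 1058 CPM over the 12 libraries, and cpr-1, at 484 to 757 CPM. The call of cpr-1 with nuclear extract passed 8 of 13 alternatives, and cpr-1 was not called on desiccated thymus. With nuclear extract, 2 of 9 hypodermis markers rose (rol-6 and dpy-7), and of 9 neuron markers 2 rose (ric-4 and rab-3) and 1 fell (snb-1). Of all tested genes, 8.62% rose and 4.72% fell. Control libraries read 0.040, 0.63 and 0.42 CPM for rol-6 and 0.88, 0.86 and 0.92 CPM for dpy-7, which are low levels. With 1 library left out, the call was lost in all 6 fits for rol-6, 4 for ric-4, 3 for rab-3, 1 for snb-1 and 0 for dpy-7. The part of tissue proportions in the values of the respiratory chain genes, X-linked or autosomal, was not tested.

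**Figure D4:**
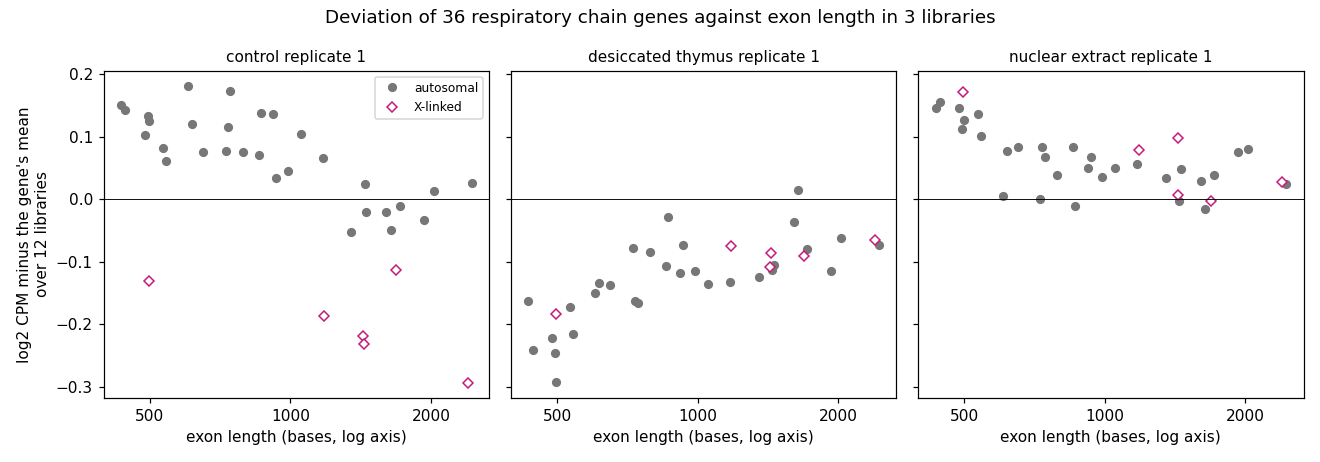
Deviation of each gene's log2 CPM from its mean over the 12 libraries against exon length in bases (log axis), for the 36 genes in 3 libraries. Shorter genes lie higher in control replicate 1 and nuclear extract replicate 1 and lower in desiccated thymus replicate 1.

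Gene length also went with how these genes moved between libraries, replicates of 1 diet included. Spearman's rho between exon length and deviation across the 36 genes was -0.70 in control replicate 1, 0.56 in control replicate 2 and 0.51 in control replicate 3, and it reached 0.77 in desiccated thymus replicate 1. Over all tested genes it ranged from -0.19 to 0.21, with the same libraries at the ends. The 12 shortest genes, of 434 to 728 bases, had a median deviation of -0.18 in desiccated thymus replicate 1, and the 12 longest, of 1432 to 2444 bases, had -0.082. In nuclear extract replicate 1 these medians were 0.12 and 0.029. For log2 fold changes, rho with length was 0.57 on desiccated thymus and -0.27 with nuclear extract against the control, and -0.56 for nuclear extract against desiccated thymus, beside 0.15, 0.0038 and -0.12 over all tested genes (n = 36 genes, which share their libraries and are not independent). Over the 30 autosomal genes these were 0.60, -0.51 and -0.67. The genes with the lowest values on desiccated thymus, cox-6B (443 bases) and cox-5B (487 bases), are among the shortest. The part of length in these differences was not tested.

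The X-linked share within each pair of related genes was also set side by side across diets. The share of ucr-2.2 in its sum with ucr-2.3 was 13.2% to 14.4% in control libraries and 15.1% to 17.7% in nuclear extract libraries, which did not overlap. Desiccated thymus libraries read 13.7% to 15.0% and cytoplasmic extract libraries 14.1% to 15.1%. The share of ucr-2.1 beside ucr-2.3 was 25.9% to 27.6% in the control and 27.7% to 30.1% with nuclear extract, narrowly without overlap. It was 27.3% to 28.35% on desiccated thymus and 27.5% to 29.9% with cytoplasmic extract. The mean share with cytoplasmic extract, 28.8%, was that of nuclear extract too, so the higher share was not particular to nuclear extract. For asg-2 the share was 17% to 20.6% in the control and 19.5% to 21.9% with nuclear extract, which overlap, and the shares of sdha-1 and asb-2 overlapped between these diets too. These shares were not tested, and 3 libraries against 3 cannot give a two-sided exact permutation p below 0.1.

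**Figure D5:**
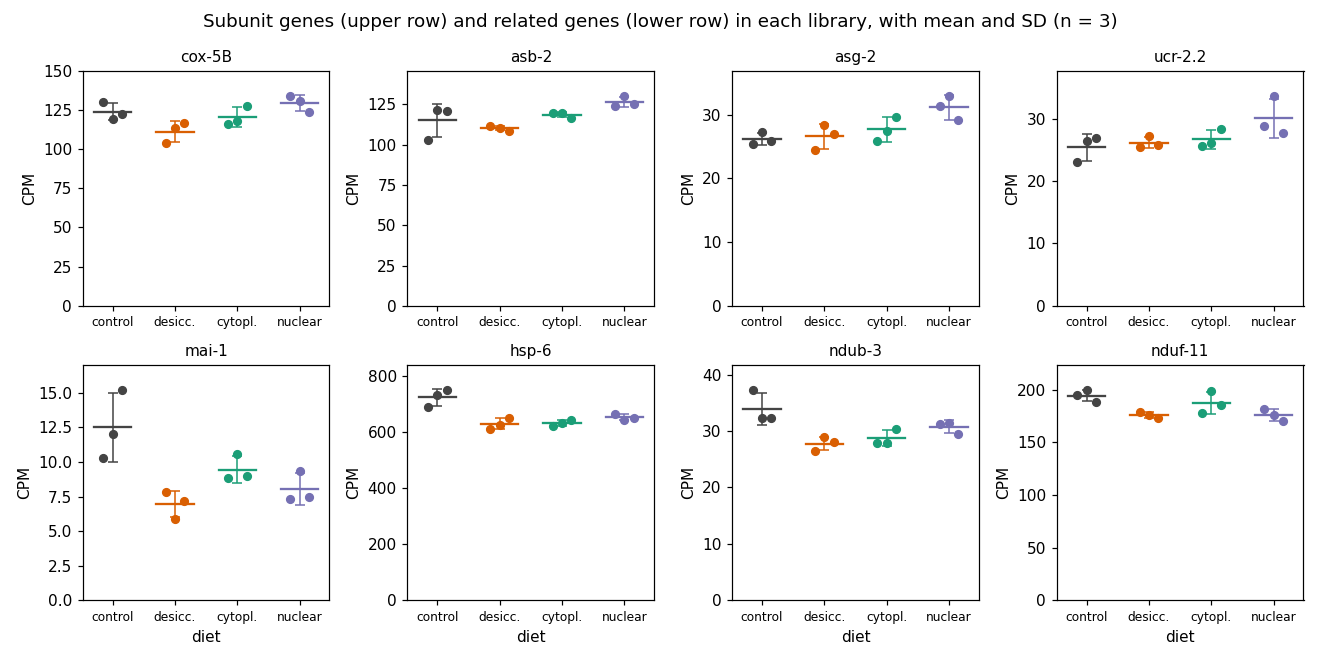
CPM in each library (points) with the mean (bar) and SD (whiskers, n = 3) by diet, for 4 respiratory chain genes in the upper row and 4 related genes in the lower row; axes start at 0. In the lower row, hsp-6 lies below the control in all 3 thymus diets, and mai-1 is below all control libraries on desiccated thymus and with nuclear extract.

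Other genes of the pathway were looked up in lists of related genes. Of 37 further nuclear genes listed under the 5 complexes, cytochrome c and inhibitors of complex V, all tested, 2 fell on desiccated thymus and 0 rose, 0 changed with cytoplasmic extract, and 2 fell and 0 rose with nuclear extract. Those that fell were mai-1 in both diets, which is not a subunit gene, with ndub-3 on desiccated thymus and nduf-11 with nuclear extract. Of all tested genes, 0.938% fell on desiccated thymus, and 4.72% fell with nuclear extract, which is near the share of these 37. Their median log2 fold changes were -0.11 (35 below 0), -0.066 (32 below 0) and 0.012 (17 below 0). The gene mai-1, for a homolog of the ATP synthase inhibitor IF1, read 10.28, 12.03 and 15.2 CPM in the control, 7.80, 5.91 and 7.15 on desiccated thymus, 8.81, 10.6 and 8.97 with cytoplasmic extract and 7.34, 9.36 and 7.46 with nuclear extract. Both desiccated thymus and nuclear extract libraries lay below all control libraries. It fell by 0.84 on the log2 scale on desiccated thymus (adjusted p = 0.00735) and by 0.63 with nuclear extract (adjusted p = 0.0185). With cytoplasmic extract its log2 fold change was -0.40 (adjusted p = 0.305) and the groups overlapped. The call on desiccated thymus passed all 13 alternatives, with an adjusted p of at most 0.0450 when 1 library was left out. The call with nuclear extract was lost without control replicate 3, nuclear extract replicate 1 or nuclear extract replicate 3 (adjusted p up to 0.0775).

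Of 20 further complex I genes, ndub-3, for an accessory subunit, fell by 0.29 on desiccated thymus (adjusted p = 0.0440), with 26.5, 28.9 and 28.02 CPM against 37.2, 32.3 and 32.2 in the control. Another, nduf-11, fell by 0.14 with nuclear extract (adjusted p = 0.0396), with 182, 176 and 170 CPM against 195, 199 and 189 in the control. Its log2 fold change on desiccated thymus was of the same size, -0.14, and did not pass (adjusted p = 0.0806). Both calls were narrow. That of ndub-3 was lost with the replicate block (adjusted p = 0.0625) and without any 1 library other than control replicate 3 (adjusted p up to 0.157). That of nduf-11 was lost when the control lacked replicate 1 or 2 and when nuclear extract lacked replicate 2 or 3 (adjusted p up to 0.162), and with totals only it had an adjusted p of 0.465. None of 11 assembly factors and none of 8 genes of ubiquinone synthesis passed in the 3 comparisons with the control.

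Among 10 genes of the mitochondrial stress response, hsp-6, for the mitochondrial HSP70 chaperone whose induction is a common readout of that response, fell in all 3 diets. Control libraries read 691, 733 and 749 CPM, desiccated thymus 612, 625 and 651, cytoplasmic extract 620, 631 and 642, and nuclear extract 665, 644 and 649. Every library of the 3 thymus diets lay below every control library. It fell by 0.20 on desiccated thymus (adjusted p = 0.00636), by 0.20 with cytoplasmic extract (adjusted p = 0.0199) and by 0.15 with nuclear extract (adjusted p = 0.0178), against control libraries shared by the 3 comparisons. Of all tested genes, 0.938% fell on desiccated thymus, 0.192% with cytoplasmic extract and 4.72% with nuclear extract. The call on desiccated thymus passed all 13 alternatives, with an adjusted p of at most 0.0343 when 1 library was left out. With cytoplasmic extract it was lost without any 1 library other than control replicate 1 (adjusted p up to 0.119), and with nuclear extract when replicate 2 or 3 of either group was left out (adjusted p up to 0.0737). With totals only, both of these missed the threshold (adjusted p = 0.278 and 0.349). With nuclear extract, dve-1, for a homeodomain protein of the same response, rose by 0.40 (adjusted p = 0.0432), a call lost without any 1 library other than control replicate 3 (adjusted p up to 0.168), and 8 of the 10 genes did not pass. In that comparison 8.62% of all tested genes rose, as did 16.2% of tested genes of the X chromosome, where dve-1 lies.

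None of 18 genes of the TCA cycle and pyruvate dehydrogenase passed against the control. Between diets, cts-1, for citrate synthase, was higher with nuclear extract than on desiccated thymus by 0.20 on the log2 scale (adjusted p = 0.0491), beside 0.137% of all tested genes. Its libraries read 451, 467 and 469 against 393, 400 and 410 CPM, with no overlap, but the call was lost without any 1 of the 6 libraries (adjusted p up to 0.201). Of 18 glycolysis genes, pyk-2, for a pyruvate kinase, rose by 0.28 with nuclear extract (adjusted p = 0.0151), and of 71 mitochondrial ribosome genes mrps-28 fell by 0.34 (adjusted p = 0.0210). Beside these, 8.62% of all tested genes rose and 4.72% fell with nuclear extract. The call of pyk-2 was lost when the control lacked replicate 1 or 2 and when nuclear extract lacked replicate 2 or 3 (adjusted p up to 0.0720), and that of mrps-28 without control replicate 1 or nuclear extract replicate 2 or 3 (adjusted p up to 0.0869).

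The partner subunits from the mitochondrial genome, 12 tested protein genes, included 1 that rose and 1 that fell with nuclear extract. Of all tested genes, 8.62% rose and 4.72% fell in that comparison. COX1, for the catalytic subunit of complex IV, rose by 0.24 (adjusted p = 0.0226), and ND3, of complex I, fell by 0.42 (adjusted p = 0.0111). COX2 was lower with nuclear extract than with cytoplasmic extract by 0.19 (adjusted p = 0.0339), beside 0.164% of all tested genes called lower there. It was also lower on desiccated thymus than with cytoplasmic extract by 0.22 (adjusted p = 0.0240), beside 0.376%. Leaving out nuclear extract replicate 3 ended the call of ND3 (adjusted p = 0.0560), as did scaling by totals only (adjusted p = 0.0515), and leaving out replicate 1 or 2 of either group ended that of COX1 (adjusted p up to 0.0908). The COX2 call against nuclear extract was lost without any 1 of its 6 libraries (adjusted p up to 0.165) and that on desiccated thymus in 4 of 6 such fits, those without desiccated thymus replicate 2 or 3 or cytoplasmic extract replicate 1 or 2 (adjusted p up to 0.123). None of the 5 nuclear genes of complex IV described above passed edgeR's test in any comparison, and the difference between nuclear and mitochondrial genes was not tested. Libraries were made from RNA enriched with oligo(dT) beads, and how far mitochondrial transcripts are captured that way was not measured here.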

How the data were processed

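Messenger RNA of whole worms was measured in 12 libraries of 4 diets, 3 each. The authors deposited whole-number read counts per gene, made per the submitters' processing notes with Trimmomatic, STAR, featureCounts and DESeq2, without versions. Per the labels' protocols, RNA was enriched with oligo(dT) beads and sequenced in pairs of 150 bases, although the molecule field says nuclear RNA. The build, WBcel235, was taken from the chromosome accessions in the deposited table. Whether strand was used, and how multiply matching reads were counted, is not given in the sources used here. Groups came from sample titles, and count columns, which carry initials of the diets and a replicate number, were matched to titles by those initials, an inference from names. Of 46929 gene identifiers, 46925 matched a RefSeq table of WBcel235. No protein, promoter or other sequence was used here.

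Low genes were removed with filterByExpr (minimum count 10, by diet). All 12 libraries entered a single fit of diet means, TMM-scaled, in edgeR 4.0.16 (R 4.3.3, robust, 8 residual degrees of freedom). A check on simulated data required recovery of large changes and few false calls. It set no requirement for changes as small as those of the respiratory chain genes. Tests were two-sided quasi-likelihood tests with Benjamini-Hochberg adjustment over 14610 genes and a threshold of 0.05. Every adjusted p is from this fit unless DESeq2 1.42.0 or another setting is named, and 95% intervals are for 1 gene at a time. Deviations are log2 CPM with a prior count of 2. Levels per length divide CPM by the deposited exon length. No label states that replicates came from separate cultures, and p-values therefore reflect only the spread among these libraries, possibly technical. Replicate pairs differed by more than sampling noise (chi-square per degree of freedom 5.60 to 302), so all were kept.

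Same-numbered libraries deviated together, from the data alone, in control, desiccated thymus and nuclear extract (correlations of deviations 0.149 to 0.669), but not in cytoplasmic extract (replicate 1 against the control, -0.358). The fit with the replicate number as a block, which covers all 12 libraries, is an alternative. Others were RLE size factors, library totals only, ribosomal RNA genes left out, no filter, DESeq2, only the 2 groups compared, and each library left out. Genes named are the members, up to 3 genes per related list and comparison that passed with the largest change, and vit-2, asp-1 and cpr-1, named after their values were seen. Values of 1 member are not reported here singly, although it entered every count and median. Members and lists were chosen with earlier results of these data known.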

Additional observations from a re-analysis of the deposited data

How the results depend on the processing

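The number of respiratory chain genes called was 0 in all 7 tests and stayed 0 under most alternatives. Without 1 library it ranged from 0 to 1 for desiccated thymus against control, 0 to 1 for nuclear extract against control and 0 to 2 for any difference among the diets, and was 0 throughout in the other 4 tests. For nuclear extract against control, DESeq2 called 1 and the replicate block called 1, both asg-2. For nuclear extract against desiccated thymus, totals only called 1 (cox-5B), and no filter, DESeq2 and only the 2 groups compared called 2 each (cox-5B and asb-2). For any difference, totals only called 1, no filter called 2 and DESeq2 called 2. Of the other calls, the replicate block ended those of ndub-3 on desiccated thymus (adjusted p = 0.0625) and elt-2 between desiccated thymus and cytoplasmic extract (adjusted p = 0.0517). No log2 fold change recomputed, for related genes that passed and members at an unadjusted p under 0.05, changed sign. Those of related genes were added after the data were seen. Tissue marker calls that passed all 13 alternatives with nuclear extract were pept-1, pho-1 and dpy-7, while rol-6 passed 4. Counts over all genes moved more: nuclear extract against desiccated thymus had 21 calls, 239 with DESeq2 and 235 with only its 2 groups, and cytoplasmic extract against control had 95 and 340 with DESeq2. With 3 libraries a diet, 95% intervals of single genes against the control reached 1.35-fold, and nuo-3 was too low to test.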
